A study of Rattus norvegicus with 30 samples.

Results

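The genes described here are 9 genes of myelin and of the oligodendrocytes that make it: Mbp, Mog, Mag, Mobp, Cnp, Cldn11, Opalin, Ermn and Myrf. They were taken by gene symbol from a table of 17134 genes measured by RNA sequencing of brain tissue, and all 9 symbols were found. The tissue came from 30 male Sprague Dawley rats on a normal diet, 10 of each of 3 genotypes. WT rats express only the rat's own amylin, a hormone of the pancreatic β-cells that does not form amyloid. HIP rats carry a transgene for human, amyloid-forming amylin, which is expressed in the β-cells, and they develop type-2 diabetes. AKO rats lack the amylin gene. The study's methods give an age of 15 to 16 months for HIP and WT rats, and the age of the AKO rats that were sequenced is not given in the sources used here. The labels call the tissue frontal cortex, whereas the study's text also speaks of cerebral cortex and of hippocampus. WT and HIP rats carry numbers of the same kind and AKO rats carry numbers of other kinds. The labels do not say what these numbers stand for, and for AKO that cannot be told apart from genotype. Nothing in the labels says more about litters or about separate preparations. The amylin gene was not analysed here, so the genotypes were not checked against its level.

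Myelin is a sheath that oligodendrocytes wrap around axons. It speeds conduction and supports the axon, and in the cortex it is much denser in the deep layers and in the white matter beneath them than near the surface. Its proteins fall into those of the compact lamellae (Mbp, Mobp), of the outer and inner surfaces and the tight-junction strands (Mog, Mag, Cldn11), and of the cytoplasm-filled channels and the cell body (Cnp, Ermn, Opalin), while Myrf is the transcription factor that turns on many of these genes when a precursor cell matures. In bulk tissue, a lower value can mean fewer oligodendrocytes or less RNA in each of them, and these cannot be told apart.

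The 9 genes varied together from rat to rat, as described below, and Myrf encodes a transcription factor, so the sequence in front of the start site is shown for 5 members, to show where its motif lies. Each line gives the 250 bases before the start of the gene, from RefSeq on the GRCr8 build, read 5′ to 3′ on the strand of the gene. Capitals mark the motif bound by MYRF (CTGGCAC or CTGGTAC, on either strand) in the first 4, and the SOX motif (ACAAAG, on either strand) in Mobp.
Mag (chr1:95291045-95291294, minus strand): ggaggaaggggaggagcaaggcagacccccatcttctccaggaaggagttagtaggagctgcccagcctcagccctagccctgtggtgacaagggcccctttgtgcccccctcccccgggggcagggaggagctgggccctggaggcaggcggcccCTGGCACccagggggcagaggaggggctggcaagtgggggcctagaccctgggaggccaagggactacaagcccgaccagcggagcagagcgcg
Cnp (chr10:86011254-86011503, plus strand): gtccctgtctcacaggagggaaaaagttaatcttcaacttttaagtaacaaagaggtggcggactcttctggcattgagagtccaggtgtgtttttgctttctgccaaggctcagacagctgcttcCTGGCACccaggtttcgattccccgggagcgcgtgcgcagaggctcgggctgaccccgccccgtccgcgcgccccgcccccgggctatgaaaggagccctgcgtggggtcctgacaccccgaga
Opalin (chr1:249858191-249858440, minus strand): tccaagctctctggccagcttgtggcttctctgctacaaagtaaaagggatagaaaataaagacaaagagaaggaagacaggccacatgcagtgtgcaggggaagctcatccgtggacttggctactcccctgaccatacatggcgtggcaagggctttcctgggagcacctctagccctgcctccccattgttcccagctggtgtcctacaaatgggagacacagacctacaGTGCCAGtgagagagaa
Cldn11 (chr2:114149540-114149789, minus strand): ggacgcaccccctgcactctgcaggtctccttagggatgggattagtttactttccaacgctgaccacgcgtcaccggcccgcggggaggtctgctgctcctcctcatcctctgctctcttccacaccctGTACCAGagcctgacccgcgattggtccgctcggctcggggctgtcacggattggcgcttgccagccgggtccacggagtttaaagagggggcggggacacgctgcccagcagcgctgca
Mobp (chr8:128746982-128747231, plus strand): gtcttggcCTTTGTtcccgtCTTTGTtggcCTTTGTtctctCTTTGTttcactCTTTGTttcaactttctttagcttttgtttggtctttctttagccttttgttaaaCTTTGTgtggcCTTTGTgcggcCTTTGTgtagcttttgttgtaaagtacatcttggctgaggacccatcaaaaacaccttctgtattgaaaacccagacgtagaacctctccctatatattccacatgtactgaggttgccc
The MYRF motif was in the windows of 4 of the 6 members that had one (Mag, Cnp, Opalin and Cldn11), and 5.48% of all 33469 windows of that length held it. In Mag it lay at bases -94 to -88 from the start, in Cnp at -124 to -118, in Opalin at -17 to -11 and in Cldn11 at -120 to -114. The Mobp window held no MYRF motif but 8 copies of the SOX motif, all in the reverse orientation. A motif for SOX proteins such as SOX10 (ACAAAG or ACAATG) was in 5 of the 6 members, against 25.3% of all windows, and the E-box motifs CAGCTG or CATATG, of the kind that OLIG2 binds, in 3 of the 6, against 15.2%. Mbp was searched as well, in 2 windows. These matches describe letters in a window and do not show that a factor binds there. Mog, Ermn and Myrf had no window.

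The deposited counts had already been scaled to a common size, and their totals ran from 15.4 to 18.0 M per rat. From the spacing of low values, in M (mega) reads, about 12.9 to 21.1 M reads per rat were estimated in WT (median 19.1 M), 13.7 to 16.7 M in HIP (median 15.7 M) and 12.9 to 23.6 M in AKO (median 16.1 M), so the WT median was the highest. A few libraries stood apart from the rest of their group. The WT rat 10RT43 was the rat farthest from the group median in 49.9% of 17103 genes, HIP rat 10RT46 in 34.1%, AKO rat 6KAH98 in 37.6% and AKO rat 4KAH27 in 25.0%. All 10 genes of a cerebellar neuron list were higher in 10RT43 than in any other WT rat, with a summed normalized count of 73354 against at most 1786 in the others. The same 10 genes were all highest in 12RT23 among HIP rats (8815 against at most 1327), and all 10 genes of a pineal gland list and all 10 of a choroid plexus list were highest in 10RT46 (25573 against at most 161, and 18379 against at most 453). In HIP, 7 of the 10 pineal genes, Aanat and Crx among them, and 5 of the 10 choroid plexus genes, Ttr among them, were at 0 in some rat. AKO rat 7AKO19 held the most choroid plexus signal of its group (4176 against at most 660). By the share of genes in which they were farthest, 12RT23 (8.82%) and 7AKO19 (2.98%) did not stand apart. Both are still counted among the libraries that stood apart below. Beside several results below, the value without some of these libraries is also given. Where 3 libraries are left out (10RT43, 10RT46 and 7AKO19), 4KAH27, 6KAH98 and 12RT23 are kept. The neuronal markers of the labelled tissue were present: the mean log2 level of 8 neocortical layer genes was 9.32 to 10.34 in 29 rats and 6.35 in 10RT43.

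The levels of the 9 genes overlapped between the genotypes in every case. Mbp, myelin basic protein, which holds the inner faces of the membrane together in compact myelin, was at a normalized count of 30179 to 60915 in WT (median 49075), 19990 to 90023 in HIP (median 40015) and 32950 to 67894 in AKO (median 47314). The HIP rats reached both below and above all WT and AKO rats. Mobp, another small basic protein of compact myelin, was at 6344 to 12108 in WT (median 9234), 5496 to 18767 in HIP (median 8475) and 7064 to 13362 in AKO (median 10204). Again the lowest and highest rats were HIP rats, 12RT23 at the bottom and 10RT54 at the top.

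Mog, an immunoglobulin-like protein on the outermost surface of the sheath, was at 635 to 1296 in WT (median 996), 548 to 2042 in HIP (median 842) and 251 to 1472 in AKO (median 906). The lowest AKO rat, 4KAH27, lay far below the next one at 582. Mag, an adhesion protein of the innermost membrane that faces the axon, was at 1550 to 3879 in WT (median 3016), 1507 to 4906 in HIP (median 2314) and 1944 to 3444 in AKO (median 2607). Only 2 of 10 HIP rats and 2 of 10 AKO rats were above the WT median for Mag, yet the ranges overlapped almost fully. Cldn11, which forms the tight-junction strands between the lamellae, was at 2209 to 3396 in WT (median 2411), 1636 to 5005 in HIP (median 2437) and 935 to 3897 in AKO (median 2785). WT rats were the most alike for Cldn11, with an SD of 370 against 1030 in HIP and 909 in AKO.

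Cnp, an enzyme that keeps the cytoplasmic channels of the sheath open, was at 5099 to 8372 in WT (median 6719), 4337 to 11556 in HIP (median 6078) and 2633 to 8966 in AKO (median 6269). Opalin, a glycoprotein of the oligodendrocyte membrane, was at 855 to 2228 in WT (median 1740), 1108 to 3649 in HIP (median 1378) and 846 to 2252 in AKO (median 1423). Myrf was at 879 to 1654 in WT (median 1379), 924 to 1999 in HIP (median 1240) and 994 to 2518 in AKO (median 1497). Here the highest rat of all 30 was the AKO rat 4KAH27, which was the lowest of all for Mog, Cnp, Cldn11, Opalin and Ermn.

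Ermn, ermin, a protein that binds the actin skeleton at the rim of the sheath, was the member with the smallest p in both comparisons with AKO. It was at 1270 to 2410 in WT (median 2096), 1348 to 2925 in HIP (median 1987) and 890 to 2642 in AKO (median 1489). Of 10 AKO rats 8 were below the WT median and of 10 HIP rats 9 were above the AKO median, although the groups overlapped.

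**Figure D1:**
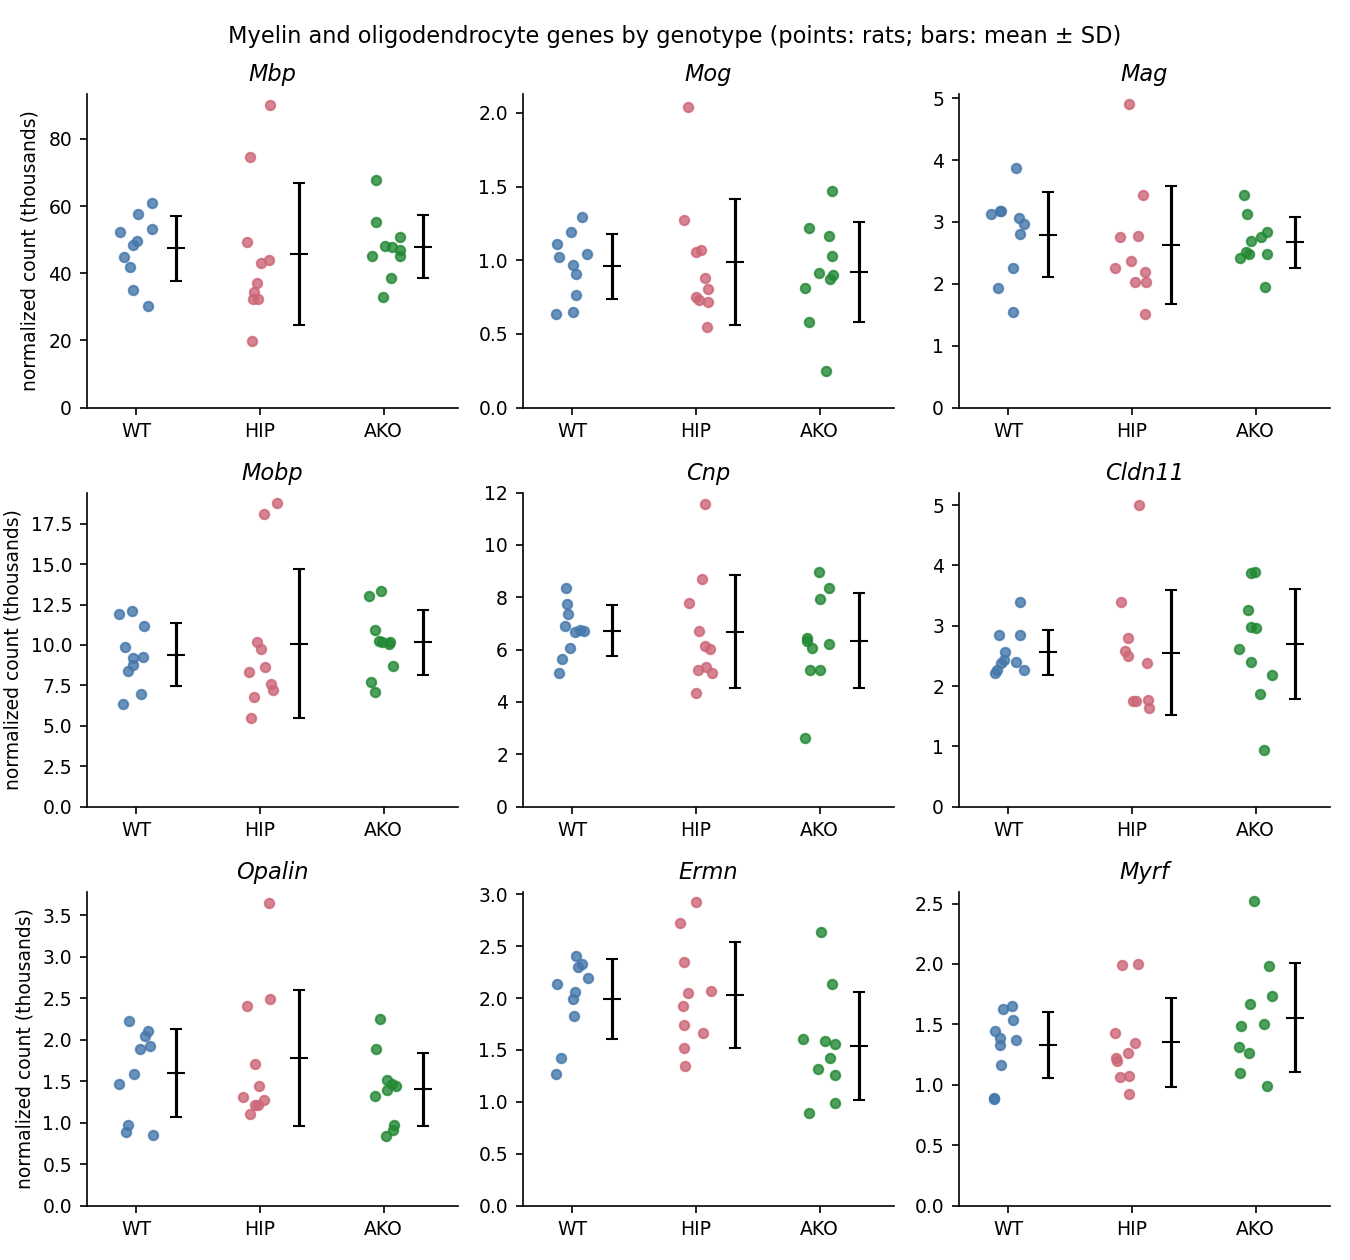
Normalized count (in k, linear axis from 0) of the 9 genes in 10 WT, 10 HIP and 10 AKO rats. Each point is a rat and the bar beside the points is the mean ± SD. The 3 genotypes overlap for each gene, HIP rats spread the most for Mbp and Mobp, and AKO rats sit lowest for Ermn, with a mean of 1539 against 1993 in WT and 2031 in HIP.

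The first comparison asked whether HIP rats, with human amylin and diabetes, differed from WT rats in these genes. It used limma on log2(normalized count + 1), two-sided, with Benjamini-Hochberg adjustment over all genes tested. None of the 9 members had an unadjusted p under 0.05, where 2.57% of 17085 genes did (1.11% higher and 1.46% lower in HIP), and 0% of all genes passed after adjustment, whereas 439 did before it. The members' log2 fold changes were between -0.15 (Mbp, SE 0.21, p = 0.490) and 0.13 (Opalin, SE 0.23, p = 0.580), with a median of -0.02 beside 0.00 over all genes. The 95% intervals were wide. That of Mbp ran from a ratio of 0.67 to 1.22 and that of Opalin from 0.78 to 1.53, and differences inside these intervals were not detectable with these rats. For 8 of the 9 members HIP rats were more often below than above the WT median: 8 of 10 for Mag, 7 of 10 for Mbp, Cnp, Ermn, Myrf and Opalin, and 6 of 10 for Mog and Mobp. For Cldn11 5 were below and 5 above. The fold changes of the means were near 0 all the same, and 10RT46 and 10RT54 were the highest HIP rats on the mean of the 9. Without 10RT46 the median of the 9 fold changes was -0.14 with 8 of the 9 negative, and without 12RT23 it was 0.07 with 6 of the 9 positive. Without the 3 libraries 10RT43, 10RT46 and 7AKO19 all 9 were negative, from -0.28 to -0.06, with a smallest unadjusted p of 0.125. The 9 genes varied together from rat to rat, as described below, so their matching signs are not separate observations. The same counts over all genes are not given here.

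The second comparison, AKO against WT, had 1 of 9 members with an unadjusted p under 0.05, where 9.34% of 17058 genes did (5.23% higher and 4.12% lower in AKO) and 0.0997% passed after adjustment. That share of members is near that of all genes. Ermn was 0.75 times its WT level in AKO rats (log2 fold change -0.41, SE 0.17, 95% interval of the ratio 0.59 to 0.96, unadjusted p = 0.0218, adjusted p = 0.442). It did not pass after adjustment. Leaving out each rat in turn gave -0.51 to -0.33 with p of 0.0030 to 0.0476, and the 6 AKO rats with AKO numbers alone gave -0.33 (limma p = 0.0345) beside -0.54 (limma p = 0.0427) for the 4 with KAH numbers. Without 6 libraries that stood apart (10RT43, 10RT46, 12RT23, 7AKO19, 4KAH27 and 6KAH98), an alternative chosen after the data had been seen, it was -0.26 with p = 0.129. Weights for the quality of each library gave -0.37 (limma p = 0.0054). The other members ran from -0.17 (Opalin, SE 0.21, p = 0.433) to 0.21 (Myrf, SE 0.15, p = 0.193), and the median over the 9 was -0.04 beside 0.00 over all genes.

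The third comparison set HIP rats, with the human amylin transgene and diabetes, against AKO rats, which lack the amylin gene. It shares its rats with the other comparisons. These groups also carry numbers of different kinds, and the age of the AKO rats is not given. Which of these differences lay behind a value was not tested. Again 1 of 9 members had an unadjusted p under 0.05, where 12.7% of 17092 genes did (5.85% higher and 6.9% lower in HIP) and 0.17% passed after adjustment. Ermn was 1.35 times as high in HIP as in AKO (log2 fold change 0.43, SE 0.17, unadjusted p = 0.0198, adjusted p = 0.307), with a p of 0.0030 to 0.0444 when each rat was left out in turn and 0.108 without the 6 libraries. With weights for the quality of each library it was 0.23 with p = 0.0851. Opalin followed at 0.30 (SE 0.21, p = 0.171), and the lowest was Myrf at -0.20 (SE 0.16, p = 0.227). The median over the 9 was -0.07 beside 0.00 over all genes.

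Because the level of the whole set differed from rat to rat, each member was also fitted with the mean log2 level of the other 8 in the same rat as a covariate, a fit chosen after the data had been seen. The interval of Mog in HIP against WT, for example, was -0.41 to 0.38 with genotype alone and -0.07 to 0.11 with the covariate, whereas that of Myrf in AKO against WT was about as wide in both fits (SE 0.15). In the fit of Ermn, 3.3% of all genes had an unadjusted p under 0.05 in HIP against WT, 10.1% in AKO against WT and 14.1% in HIP against AKO, and over the 9 fits these shares were 3.24% to 3.3%, 9.93% to 10.4% and 14.1% to 15.8%. Of the 9 members 0, 1 and 3 had such a p. Ermn stayed lower in AKO by nearly the same amount: -0.39 against WT (SE 0.10, unadjusted p = 7.86e-04, adjusted p = 0.157) and 0.44 for HIP against AKO (SE 0.10, unadjusted p = 2.82e-04, adjusted p = 0.0650). Without the 6 libraries, the same fit gave -0.26 against WT (p = 0.0021, adjusted p = 0.130) and 0.35 for HIP against AKO (p = 2.55e-04, adjusted p = 0.0471), where 0.635% of all genes passed after adjustment. Of the members, this last fit was run for Ermn alone. In log2 units relative to the other 8 genes, Ermn was at -1.12 to -0.76 in WT, -1.29 to -0.65 in HIP and -1.97 to -0.93 in AKO. On that scale 8 of 10 AKO rats lay below every WT rat and 4 of 10 lay below every HIP rat. All 10 lay below the median of WT and that of HIP. In the other direction, 9 of 10 AKO rats lay above both medians for Mobp, and 9 of 10 for Cldn11. Opalin was higher in HIP than in AKO relative to the other genes (0.29, SE 0.09, p = 0.0051, adjusted p = 0.187), Mbp was lower (-0.23, SE 0.11, p = 0.0420, adjusted p = 0.305), and neither passed after adjustment. In HIP against WT the smallest unadjusted p was that of Opalin at 0.101.

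**Figure D2:**
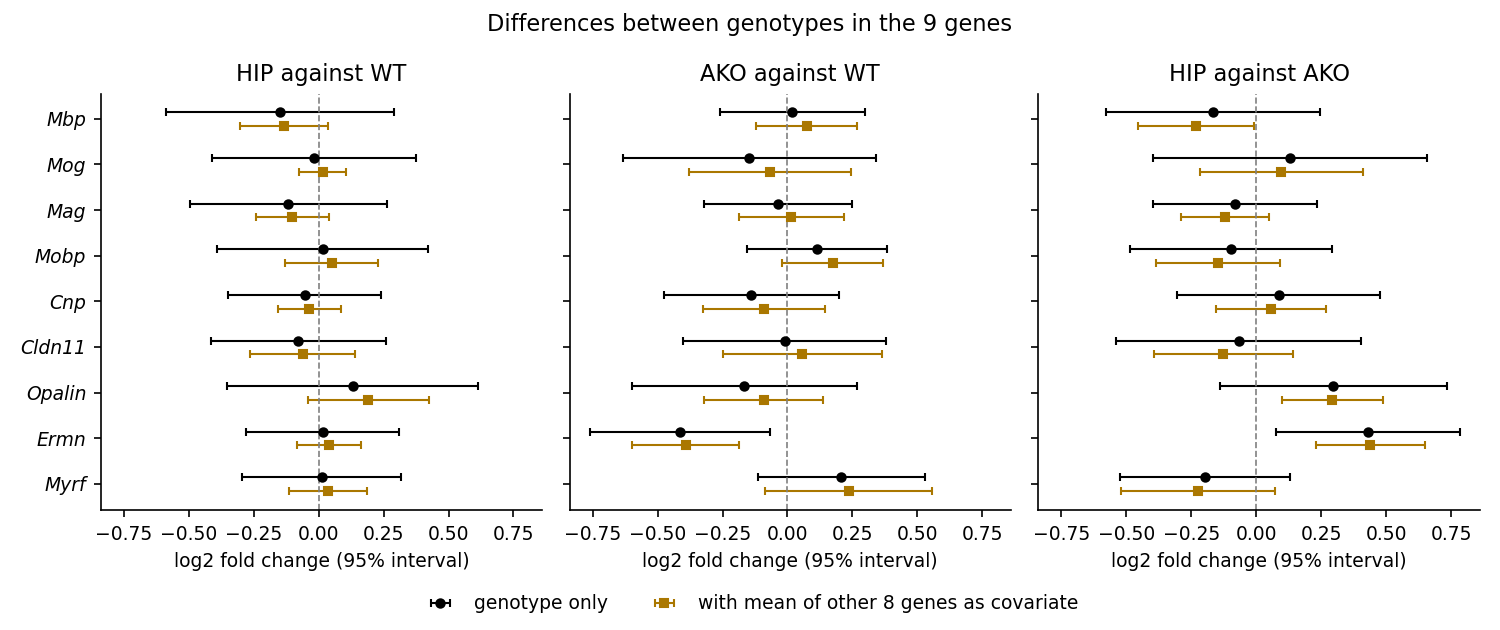
Log2 fold change with its 95% interval for the 9 genes in HIP against WT, AKO against WT and HIP against AKO, from limma with genotype alone (black circles) and with the mean of the other 8 genes of the rat as a covariate (brown squares). Ermn is the gene whose intervals miss 0 in both comparisons with AKO, at -0.41 and 0.43 with genotype alone, and no interval misses 0 in HIP against WT.

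**Figure D3:**
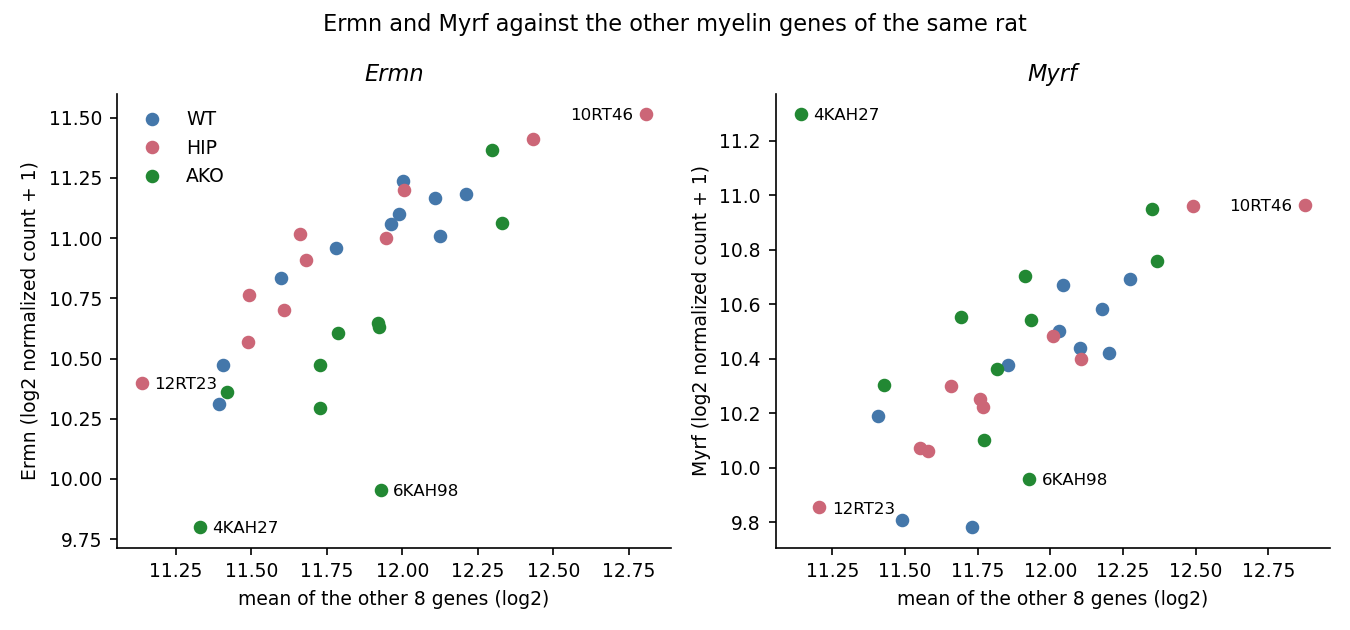
Level of Ermn (left) and of Myrf (right) in each rat, as log2(normalized count + 1), against the mean log2 level of the other 8 genes in the same rat, coloured by genotype. For Ermn most AKO rats lie under the WT and HIP rats of the same myelin gene level, and for Myrf the AKO rat 4KAH27 stands alone at the top left.

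Most of the variation in the 9 genes lay between rats of the same genotype. Genotype accounted for 22.9% of the variance of Ermn, 7.03% of that of Myrf, 5.63% of that of Opalin and at most 3.17% of that of each other member. The SD within genotypes was 0.37 to 0.55 on the log2 scale, lowest for Myrf and highest for Mog, and the median of the 9 was 0.41 beside 0.22 over 6345 genes whose mean was 500 or more. From 81.3% (Myrf) to 92.7% (Mog) of those genes had a smaller SD. Between the lowest and the highest of 30 rats, Myrf differed 2.86-fold, Cnp 4.39-fold and Mog 8.13-fold.

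That variation was shared. Across 30 rats, after the mean of each genotype was taken off, the 36 pairs of members had correlations of 0.22 (Cldn11 and Myrf) to 0.96 (Mbp and Mobp), with a median of 0.72. These coefficients describe rats that share a library and a dissection. In HIP all 36 pairs were between 0.79 and 0.98 (median 0.93), and between 0.57 and 0.97 (median 0.86) without 10RT46 and 12RT23, the rats at both ends of the range. In WT they were between 0.37 and 0.97 (median 0.81). In AKO they ran from -0.43 (Cnp and Myrf) to 0.97, with a median of 0.50. The AKO rat 4KAH27 lowered these values: without it the 36 pairs of all rats were between 0.66 and 0.96 with a median of 0.81, and those of AKO between 0.31 and 0.97 with a median of 0.73.

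**Figure D4:**
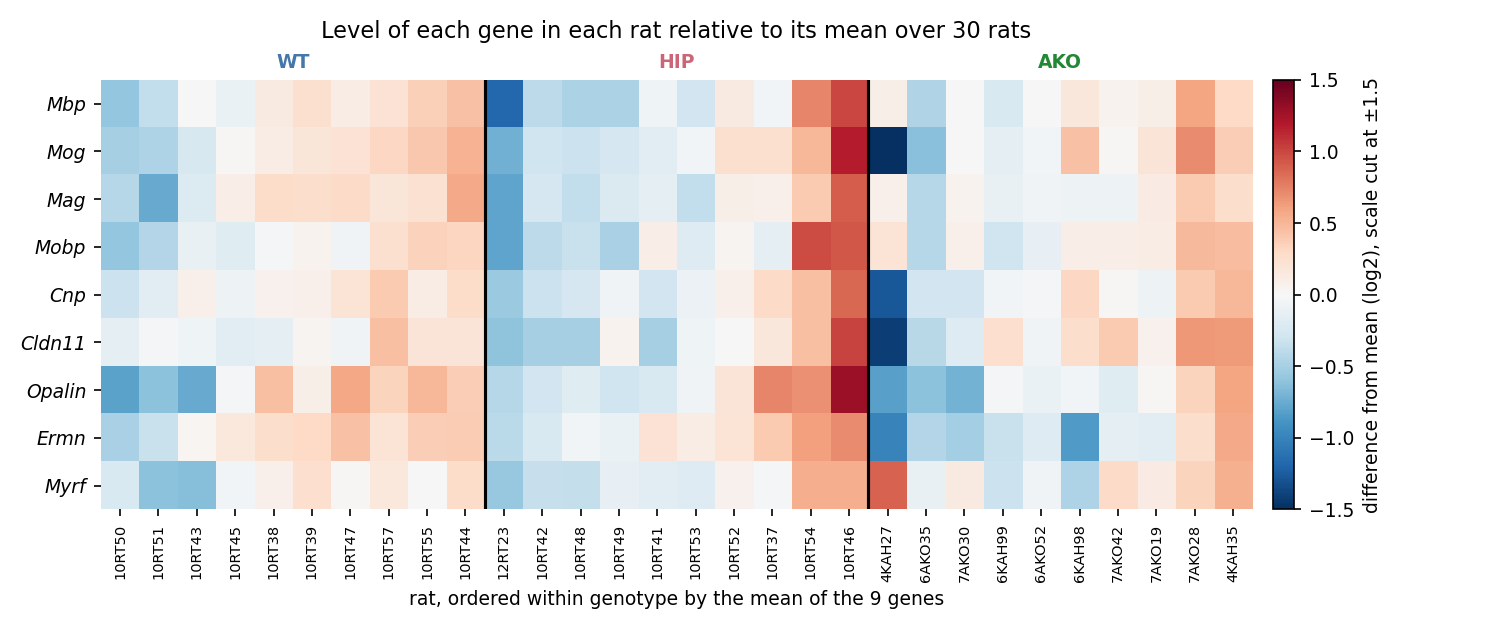
Difference of each gene from its mean over 30 rats (log2, colours limited to ±1.5), with rats in columns, ordered within genotype by the mean of the 9 genes. Most columns have a common colour from top to bottom, from low (12RT23) to high (10RT46), and the column of 4KAH27 does not: Mog, Cnp and Cldn11 are far below and Myrf far above their means.

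HIP rats held both ends of the range. HIP rat 10RT46 had the highest value of all 30 rats for 7 of the 9 genes and was in the top 3 for all 9, with 90023 for Mbp and 2042 for Mog. This is the rat with pineal and choroid plexus markers, and their part in these values was not tested. HIP rat 10RT54, among the top 3 for 6 of the 9, had the highest sum of striatal neuron genes of the HIP rats (17698 against at most 12330). At the other end, HIP rat 12RT23 was the lowest of all for Mbp (19990), Mag (1507) and Mobp (5496), and it is the HIP rat with cerebellar markers. WT rat 10RT43 had a larger cerebellar sum (73354 against 8815) and ranked 18 of 30 for Mbp, 22 for Mag and 18 for Mobp. The part of these markers was not tested. The mean log2 level of the 9 genes ran from 11.06 in 12RT23 to 12.66 in 10RT46, a 3.05-fold range.

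In the AKO rat 4KAH27 the genes moved apart. Mog (251), Cnp (2633), Cldn11 (935), Opalin (846) and Ermn (890) were the lowest of all 30 rats and Myrf (2518) was the highest, while Mbp (47840) and Mag (2751) each ranked 14 and Mobp (10944) ranked 8. The ratio of Myrf to Mog, which was 0.82 to 2.17 in the other 29 rats, was 10.0 there. This library had the fewest estimated reads of all and the highest sum of striatal neuron genes among AKO rats (25160 against at most 14751), and the part of either in these values was not tested. In AKO rat 6KAH98, Ermn (990) and Myrf (994) ranked 29 and 27 of 30 while Mog (1216) and Cnp (7927) ranked 5 and 6.

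To see what else varied with the 9 genes, the mean log2 level of the set was correlated with that of 22 other gene lists across 30 rats, after the genotype means were taken off, with 100000 permutations and adjustment over the 22. The mean of 19 other genes of mature oligodendrocytes followed it most closely (Pearson r = 0.97, permutation p = 1e-05, adjusted p = 4.4e-05, Spearman rho = 0.97 with the same permutation p), with r of 0.96, 0.99 and 0.97 within WT, HIP and AKO. This p is the smallest that 100000 permutations can give. Other compact myelin proteins (0.97), genes of the paranode and of the inner tongue (0.93), myelin lipid synthesis (0.86) and glial gap junctions and channels (0.85) had the same permutation p and adjusted p. Leaving out the 2 rats farthest from the median of each list gave 0.97, 0.95, 0.92, 0.85 and 0.78 in this order.

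Lists of earlier stages of the lineage had lower coefficients. Lineage transcription factors had r = 0.585 (permutation p = 6e-04, adjusted p = 0.0022, rho = 0.535 with permutation p = 0.00275), and 0.40 (permutation p = 0.035, adjusted p = 0.0855) without 10RT46 and 4KAH35, so that it passed after adjustment with those rats and not without them. Within genotypes r was 0.11 in WT, 0.76 in HIP and 0.64 in AKO. Newly formed oligodendrocytes had r = 0.28 (adjusted p = 0.239), with -0.07 in WT, 0.24 in HIP and 0.54 in AKO. Precursor cells had r = 0.14 (adjusted p = 0.619), with 0.00 in WT, -0.17 in HIP and 0.54 in AKO. The 9 precursor genes were at their lowest mean in 10RT43 among WT rats and in 4KAH27 among AKO rats.

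Among lists of other tissues and cells, thalamic neuron genes went down as the 9 genes went up (r = -0.44, permutation p = 0.0145, adjusted p = 0.0401, rho = -0.55 with permutation p = 0.00195, and r = -0.63 without the 2 farthest rats, 4KAH35 and 6AKO35). Within genotypes r was -0.91 in WT, -0.68 in HIP and -0.04 in AKO, so the relation was not seen within AKO. Without 10RT43, 10RT46 and 7AKO19 it was -0.45 with an adjusted p of 0.0531. The pineal list had r = 0.48 (adjusted p = 0.0401) but rho = 0.04 (permutation p = 0.826) and r = -0.25 without 10RT46 and 10RT49, so that relation rests on 10RT46. The cerebellar list had r = -0.30 (adjusted p = 0.232), -0.47 (adjusted p = 0.0202) without 10RT43, 10RT46 and 7AKO19, and 0.00 without 10RT43 and 12RT23. Within genotypes its r was -0.38 in WT, -0.34 in HIP and -0.36 in AKO. Leaving out 12RT23 alone was not tried. The striatal list had r = 0.29 (adjusted p = 0.232), the olfactory bulb list -0.18 (adjusted p = 0.557) and the neocortical layer list 0.06 (adjusted p = 0.873). Lists of hippocampal neurons (-0.01), choroid plexus (0.31), astrocytes (-0.15), microglia (0.13), endothelium (0.27), meninges (0.02), neurons at large (0.04) and Schwann cells (0.12) had adjusted p values of 0.232 to 0.969. Within single genotypes some coefficients were larger in size, and their differences between genotypes were not tested. Within WT, r was -0.79 for meninges, -0.74 for choroid plexus, -0.72 for the olfactory bulb and 0.60 for neurons at large. Within HIP it was 0.70 for the pineal list, 0.59 for choroid plexus, -0.69 for neocortical layers and -0.65 for astrocytes, and within AKO it was -0.93 for the pineal list and 0.60 for microglia. Each of these rests on 10 rats. The pineal genes were near the floor in AKO. There the 10 genes summed to only 121 to 237 per rat, and several, Crx and Sag among them, were at 0 in some rat. The WT rats 10RT51 and 10RT50, lowest in WT for several members, had the highest olfactory bulb sums (12428 and 10806 against a WT median of 553).

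**Figure D5:**
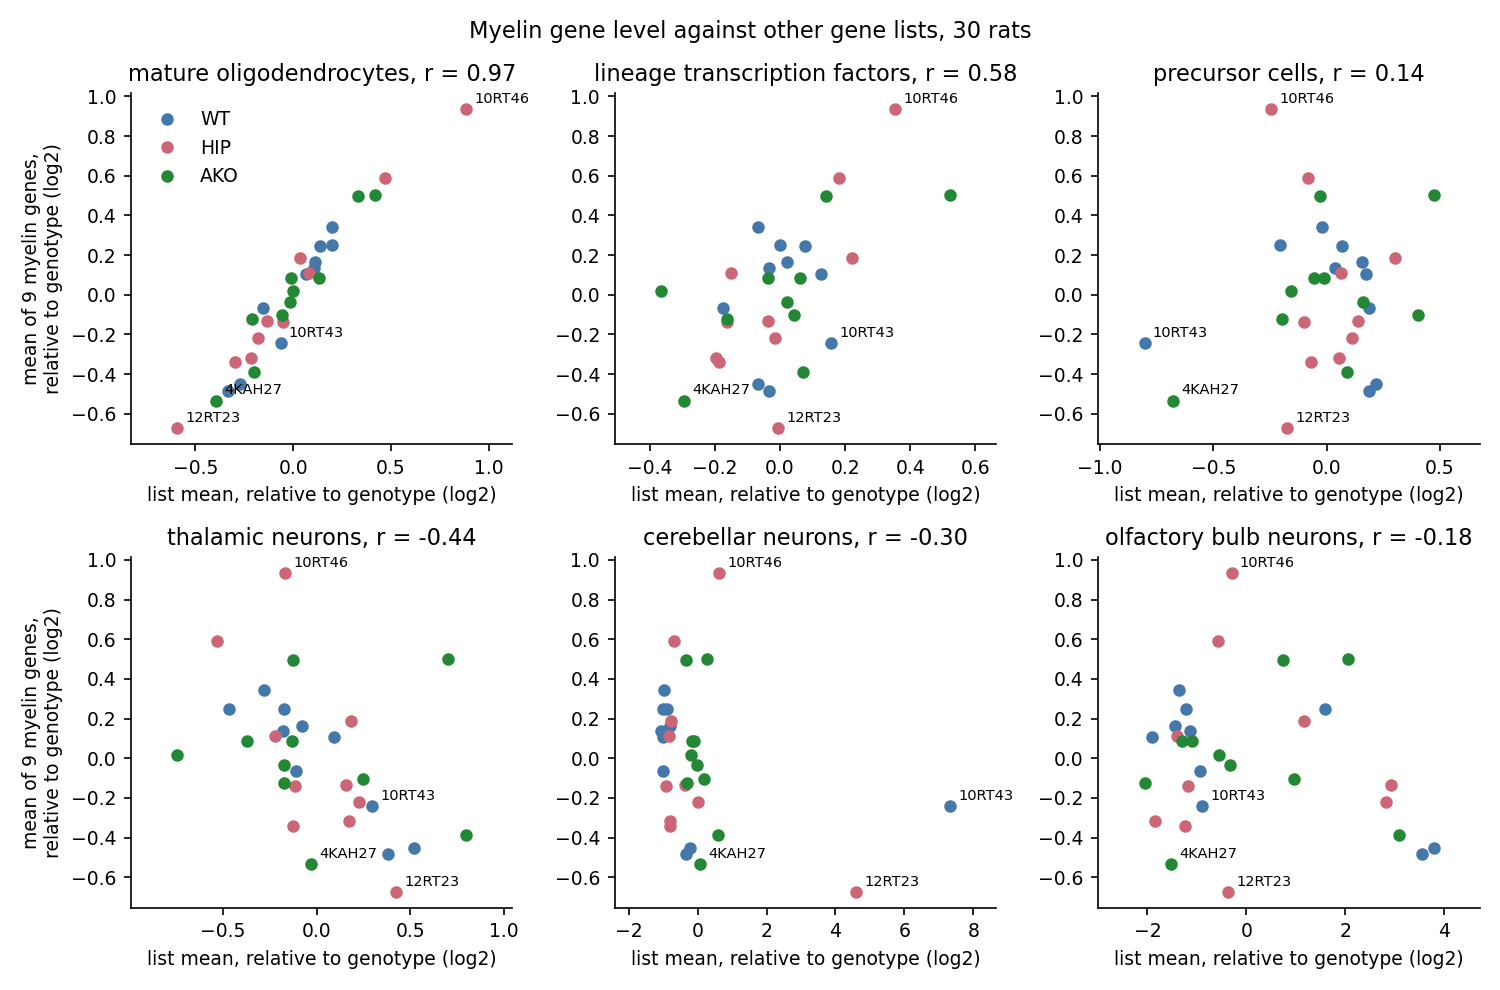
Mean log2 level of the 9 myelin genes against that of 6 other gene lists in 30 rats, both relative to the mean of the rat's genotype, with Pearson's r. Points lie along a line for mature oligodendrocyte genes (r = 0.97), scatter for precursor genes (r = 0.14) and slope downwards for thalamic neuron genes (r = -0.44), and 10RT43 and 12RT23 stand to the right for cerebellar neurons.

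Of 14764 genes with a symbol outside the set, the 10 whose level followed the mean of the 9 most closely across 30 rats included Tf (r = 0.94), Tmem125 (0.94), Fa2h (0.93), Gjb1 (0.91), Ppp1r14a (0.89), Myo1d (0.88), Cfap20dc (0.88) and Fah (0.88). Tf encodes transferrin, the iron carrier that oligodendrocytes make, Fa2h an enzyme that adds the hydroxyl group of myelin galactolipids, and Gjb1 a connexin of oligodendrocyte gap junctions. All 10 were highest in 10RT46, and Tf ranged from 3610 in 4KAH27 to 15776. Of these 10, 6 were in the oligodendrocyte lists. The 5 at the other end were Gmeb1 (-0.73), Fyn (-0.71), Sos1 (-0.70), Gpalpp1 (-0.70) and Nup58 (-0.69). Fyn, a kinase that acts early in myelination, ranged from 1660 in 10RT46 to 2771 in 6AKO35. Without 3 libraries that stood apart 8 of the 10 nearest genes were again among the 10 nearest, and without 6 libraries 4 were.

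Beyond the 9 members, 86 genes of 8 lists of the oligodendrocyte lineage were compared in the same fits. In HIP against WT 2 of 86 (2.33%) had an unadjusted p under 0.05, beside 2.57% of all genes, so the share is that of the background. Both were lower in HIP, as were 1.46% of all genes, and neither passed after adjustment. They were Cadm4, an adhesion protein that myelin uses to hold on to the axon (-0.16, SE 0.06, p = 0.0146, adjusted p = 0.999), and Nkx2-2, a transcription factor of cells about to mature (-0.46, SE 0.17, p = 0.0135, adjusted p = 0.999). Nkx2-2 was at 40 to 73 in WT (median 55), 25 to 67 in HIP (median 35) and 33 to 80 in AKO (median 50), and 8 of 10 HIP rats were below the WT median. Both kept an unadjusted p under 0.05 when each rat was left out in turn. With a larger p, the genes of smallest p in the lists were Cd9 (-0.15, p = 0.156) and Tspan2 (0.15, p = 0.317) of compact myelin, Elovl7 (0.14, p = 0.239) of lipid synthesis, Jam3 (0.15, p = 0.250) of the sheath, Slc45a3 (-0.30, p = 0.273) and Cnga1 (0.56, p = 0.288) of channels, the last of which had a median of 0 in each genotype, Tmem63a (-0.22, p = 0.199) and Cryab (-0.26, p = 0.215) of mature cells, Fyn (-0.10, p = 0.127) of new cells, Pdgfra (0.18, p = 0.144) and Cspg4 (-0.10, p = 0.300) of precursors and Id4 (-0.25, p = 0.222) of the transcription factors.

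In AKO against WT 11 of 85 (12.9%) had an unadjusted p under 0.05, beside 9.34% of all genes, 7 higher and 4 lower in AKO, and in HIP against AKO 17 of 86 (19.8%) beside 12.7%, 7 higher and 10 lower in HIP. None passed after adjustment, with smallest adjusted p values of 0.364 and 0.149. In mature sheath genes the directions were mixed. Qdpr, a pteridine reductase that is abundant in oligodendrocytes, was lower in AKO than in WT (-0.46, SE 0.16, p = 0.0083, adjusted p = 0.364) and all 10 AKO rats were below the WT median, and in HIP against AKO it was 0.39 (p = 0.0292, over 0.05 when any of 6 rats was left out). Sc5d, a sterol desaturase of cholesterol synthesis, was at 333 to 952 in AKO against 817 to 1157 in WT (-0.34, SE 0.14, p = 0.0260, adjusted p = 0.461) and was 0.40 in HIP against AKO (p = 0.0167). The 333 was 6KAH98, without which the value against WT was -0.21 (p = 0.0095, adjusted p = 0.341), and without 6 libraries the values were -0.15 (p = 0.0440) and 0.21 (p = 0.0161). Gjc3, a connexin of oligodendrocytes, was higher in HIP than in AKO (0.56, SE 0.19, p = 0.0088, adjusted p = 0.249), and 0.26 (p = 0.0715) without 6 libraries. In the opposite direction, Hapln2, a link protein at nodes of Ranvier, was higher in AKO than in WT (0.31, SE 0.12, p = 0.0202, adjusted p = 0.437) and lower in HIP than in AKO (-0.43, p = 0.0249). Without 6 libraries its p against WT was 0.112.

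The other genes of mature sheath lists with an unadjusted p under 0.05 in AKO against WT were Cd82 (0.23), Sirt2 (0.17), Cntn2 (-0.40) and Car2 (-0.20), and in HIP against AKO they were Tspan2 (0.35), Sirt2 (-0.22), Kcnj10 (0.24), Cntn2 (0.27) and Efnb3 (-0.45). Each of these, and the transcription factor St18 (0.62 in HIP against AKO), lost that p when some rat was left out. Mal was at 0.38 (p = 0.0740) and -0.39 (p = 0.0569) in the 2 comparisons, Cers2 at 0.15 (p = 0.129) in the first and Elovl1 at -0.22 (p = 0.106) in the second. Gjc3 and Gjb1 were at -0.39 (p = 0.109) and -0.21 (p = 0.167) in AKO against WT.

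The lists of newly formed cells, precursors and lineage transcription factors held 9, 9 and 13 genes, with some in more than 1 list. In AKO against WT 1 of 9, 1 of 9 and 2 of 13 had an unadjusted p under 0.05, in this order, all higher in AKO. Of all genes 9.34% had such a p (5.23% higher). In HIP against AKO 1 of 9, 3 of 9 and 4 of 13 had, beside 12.7% of all genes (6.9% lower). All of these were lower in HIP, with St18 the exception. Enpp6, an enzyme that marks newly formed oligodendrocytes, was at a normalized count of 20.8 to 47.4 in WT (median 33.6), 16.8 to 65.9 in HIP (median 28.1) and 8.2 to 103.6 in AKO (median 83.5). The 8.2 was 4KAH27, and the next AKO rat was at 42.5. Enpp6 was 1.88 times as high in AKO as in WT (log2 fold change 0.91, SE 0.34, p = 0.0131, adjusted p = 0.394) and 0.49 times as high in HIP as in AKO (-1.03, SE 0.36, p = 0.0087, adjusted p = 0.248). Without 4KAH27 these were 1.21 (p = 3.4e-06, adjusted p = 0.0072) and -1.33 (p = 1.57e-05, adjusted p = 0.0128). Leaving out any other single rat gave no pass after adjustment. With weights for the quality of each library, 3930 and 4289 genes had an unadjusted p under 0.05 in these comparisons. With those weights and all libraries kept, Enpp6 passed after adjustment (adjusted p = 0.0021 and 0.0051). Without 6 libraries its adjusted p values were 0.0066 and 0.0303. Cspg4, the NG2 proteoglycan of precursor cells, was at 212 to 448 in WT (median 357), 287 to 358 in HIP (median 323) and 267 to 560 in AKO (median 470). It was higher in AKO than in WT (0.32, SE 0.14, p = 0.0326, adjusted p = 0.484) and lower in HIP than in AKO (-0.42, SE 0.12, p = 0.0015, adjusted p = 0.149), and all 10 HIP rats were below the AKO median. Without 4KAH27 the values were 0.40 (p = 0.0054, adjusted p = 0.271) and -0.50 (p = 4.69e-05, adjusted p = 0.0223). No other single rat left out gave a pass for Cspg4. With the weights and all libraries kept, its adjusted p values were 0.0157 and 2.94e-04, and without 6 libraries 0.0619 and 0.0055. The unadjusted p against WT went over 0.05 when any of 7 other rats was left out.

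Olig1 and Olig2, transcription factors of the whole lineage, had differences of the same sign. Olig1 was 0.27 in AKO against WT (SE 0.13, p = 0.0420, adjusted p = 0.515) and -0.35 in HIP against AKO (SE 0.11, p = 0.0049, adjusted p = 0.220), with 9 of 10 AKO rats above the WT median. Olig2 was 0.35 (SE 0.16, p = 0.0362, adjusted p = 0.496) and -0.38 (SE 0.12, p = 0.0058, adjusted p = 0.228), and its highest value, 1211, was that of 4KAH27, beside at most 698 in the other AKO rats. Against WT, the unadjusted p of Olig1 went over 0.05 when any of 8 rats was left out and that of Olig2 when any of 7 was, 4KAH27 among them, and without 6 libraries they were 0.182 and 0.237. Without 10RT46, Olig1 was -0.43 in HIP against AKO with an adjusted p of 0.0418. With the mean of the 9 members as a covariate, Olig1 was -0.37 in HIP against AKO (SE 0.08, p = 1.30e-04, adjusted p = 0.0461), where 15% of all genes had an unadjusted p under 0.05 and 0.31% passed after adjustment. Without 6 libraries that value was -0.27 (adjusted p = 0.0268). In HIP against AKO, the precursor genes Neu4 (-0.52, SE 0.22, p = 0.0293) and C1ql1 (-0.60, SE 0.29, p = 0.0468) and the inhibitory factor Id4 (-0.47, SE 0.15, p = 0.0056) had an unadjusted p under 0.05 as well, which Neu4 and C1ql1 lost when any of 6 and any of 13 rats was left out, and in AKO against WT C1ql1 was at 0.63 (p = 0.0567). Tcf7l2, a factor of newly formed cells, was at 0.31 (p = 0.0561) and -0.30 (p = 0.0517). Pdgfra, the growth factor receptor of precursors, was at 0.30 in AKO against WT (p = 0.0837) and -0.12 in HIP against AKO (p = 0.416). Over the list of precursor genes, 1 of 9 had an unadjusted p under 0.05 in AKO against WT, near the 9.34% of all genes, and 3 of 9 in HIP against AKO, beside 12.7%. The medians of the list's log2 fold changes were 0.30 and -0.13, beside 0.00 over all genes in both. Those of the list of newly formed cells were 0.14 and -0.15. The list of lineage transcription factors had medians of -0.01 and -0.02, with values from -0.76 to 0.35 and from -0.47 to 0.62.

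Markers of astrocytes, microglia, meninges and endothelium had their highest medians in AKO. The sum of 10 astrocyte genes ran from 61082 to 78186 in WT (median 63135), 58591 to 73653 in HIP (median 62727) and 58653 to 88411 in AKO (median 73480), and that of 10 microglial genes from 3689 to 7349 in WT (median 6224), 5120 to 14347 in HIP (median 5814) and 5666 to 8878 in AKO (median 8321). The sum of 9 meningeal genes had medians of 3652, 4252 and 4765 in WT, HIP and AKO, and that of 7 endothelial genes 5309, 5374 and 5622. None of these genes was at 0 in any rat. Their part in the early lineage values was not tested. Peripheral nerve was checked with 8 Schwann cell genes. Prx, periaxin, was higher in AKO than in WT (0.62, SE 0.18, p = 0.0025, adjusted p = 0.258) and lower in HIP than in AKO (-0.45, p = 0.0112), the only Schwann cell gene with an unadjusted p under 0.05 in either. The sum of the 8 genes ran from 1165 to 2498 in WT, 1427 to 1917 in HIP and 1533 to 2336 in AKO.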

How the data were processed

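RNA was prepared by the submitters from brain tissue of 30 rats with a kit for mRNA and sequenced. The labels and the study name the rn7 build, Ensembl 105 genes, Partek Flow (10.0.22.0228), STAR 2.7.8a and Bowtie2. The deposited values are counts scaled by the authors with DESeq2, a signal that is not in whole reads, in 1 table of 17134 genes. Since only 82.1% to 85.8% of low values per rat were whole multiples of a step (within 0.02 reads), no count test was run, and limma 3.58.1 (R 4.3.3, trend, two-sided) was fitted to log2(value + 1) for genes whose mean over the 2 groups compared was 1 or more. It was tested on simulated data. Fold changes on this scale understate those of low genes. Groups came from the labels, 10 rats each. Permutations and correlations used Python 3.11.15 with numpy 2.4.6.

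The members and lists were chosen with earlier results of these data known. Genes were named by rule: all members, in each other oligodendrocyte list and comparison the 2 genes with the smallest p and any with an adjusted p under 0.05, and the 10 most and 5 least like the members. A few genes that this rule names are not reported here. Other genes with an unadjusted p under 0.05, Prx included, were named after their values were seen. The 22 lists included 14 of other cells and tissues. Of the alternatives tried, the fit with 6 libraries left out (10RT43, 10RT46, 12RT23, 7AKO19, 4KAH27, 6KAH98), the covariate fits and the correlations of members without 4KAH27, or without 10RT46 and 12RT23, were added after the data had been seen. No columns were left without a sample. Replicates are separate rats.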

Additional observations from a re-analysis of the deposited data

Results flagged for a closer look

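In each genotype the lowest and highest rat was compared with the range of its group by Dixon's test for 10 values, for the 9 members, their mean and 8 oligodendrocyte lists, 54 groups in all. The test used log2 values, whereas the values of single genes below are printed as normalized counts. On the scale of counts other rats can stand out. Chance flags about 1 in 20 such groups, or 2.7 of 54, and 6 stood out. Of these, 4 were the AKO rat 4KAH27, far below the other 9 AKO rats: Mog at 251 (others 582 to 1472), Cnp at 2633 (others 5217 to 8966), Cldn11 at 935 (others 1871 to 3897) and the mean log2 level of gap junction and channel genes at 6.28 (others 6.94 to 7.46). The other 2 were the WT rat 10RT43, a library with cerebellar markers, with a mean log2 level of 8.12 for newly formed oligodendrocyte genes (others 8.38 to 8.57) and 7.25 for precursor genes (others 7.84 to 8.27). No cause was tested.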

How the results depend on the processing

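Of 984 values for single members under an alternative, 902 kept their direction and their side of the threshold, 76 changed sign, 3 passed below p = 0.05 and 3 above it. No paired analysis was possible because the labels give the groups no shared replicate numbers. Pseudocounts, filters, robust moderation, 1 fit over 30 rats and rescaling changed no count of members past the threshold. The genes with an unadjusted p under 0.05 were 885, 3930 and 4289 (HIP against WT, AKO against WT, HIP against AKO) with sample-quality weights and 1568, 2735 and 3510 after adjusting for the leading principal component of residuals. In HIP against WT they were 4104 with estimated reads as a covariate, 817 without 3 libraries and 309 to 779 when each rat was left out, the highest without 10RT46. Of the members, 1 passed in HIP against WT with weights (Mag, -0.31, p = 0.0372), 0 in HIP against AKO with weights, and 0 in both comparisons with AKO without 6 libraries. With weights, several other lineage genes besides Enpp6 and Cspg4 passed after adjustment. Examples were Qdpr in AKO against WT (adjusted p = 0.0170) and Olig1 and Id4 in HIP against AKO (0.0116 and 0.0097). Others, such as Cntn2 (0.117 and 0.249), did not. Without 6 libraries, 4 of the 10 genes most like the members were shared. The cause of these changes was not tested.

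All signs that changed belonged to log2 fold changes between -0.15 and 0.13. In HIP against WT, weights gave Mobp -0.12, Opalin -0.14, Ermn -0.14 and Myrf -0.16, and leaving out 3 libraries gave Mobp -0.10, Opalin -0.082, Ermn -0.059 and Myrf -0.12. Leaving out 6 gave Mobp -0.017, Opalin -0.026 and Myrf -0.065. Library number as a covariate gave Ermn -0.011 and Myrf -0.015, estimated reads gave Mog 0.10, Cnp 0.0020 and Cldn11 0.039, and the mean of the other members gave Mog 0.015. In AKO against WT, Mbp was -0.010 with weights, -0.0082 with quantile normalization, -0.013 with estimated reads and -0.010 without 6 libraries. Cldn11 was 0.13 with weights, 0.14 without 6 libraries, 0.045 with only AKO numbers and 0.057 with the mean of the other members, which gave Mag 0.015. In HIP against AKO, Mog was -0.13 with weights, -0.052 without 6 libraries and -0.0043 with only AKO numbers, Cnp was -0.079 with weights, -0.0077 without 3 libraries and -0.064 without 6, and Cldn11 was 0.017 with only KAH numbers.

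When each rat was left out, the values in HIP against WT ran from -0.14 to 0.067 for Mog, -0.097 to 0.10 for Mobp, -0.15 to 0.0096 for Cnp, -0.054 to 0.076 for Ermn and -0.056 to 0.067 for Myrf. In AKO against WT they ran from -0.050 to 0.076 for Mbp, -0.24 to 0.047 for Mog, -0.13 to 0.021 for Mag and -0.081 to 0.15 for Cldn11, and in HIP against AKO from -0.064 to 0.22 for Mog, -0.047 to 0.15 for Cnp and -0.23 to 0.0026 for Cldn11. The table holds no whole counts, so counting error is not separated from the spread between rats.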
